A study of Mus musculus with 8 samples.

Results

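Nitric oxide synthesis and arginine metabolism were followed through genes listed by name for their roles, 10 of the 46078 genes in the count table. Described here are 8 of them, Nos2, Gch1, Slc7a1, Slc7a2, Ass1, Asl, Odc1 and Ddah2. The counts come from poly(A)-selected RNA-Seq of the immortalized mouse microglial line BV-2, used at passages 5 to 6, in 4 groups of 2 libraries. Every group spent 4 hours in medium without serum. Control cells received nothing further. LPS cells received lipopolysaccharide (LPS), an endotoxin of Gram-negative bacteria, at 100 ng/mL for 20 hours. AGE+LPS cells were also given aged garlic extract (AGE, 0.5% v/v), starting 1 hour ahead of LPS. FruArg, a fructose-arginine conjugate contained in that extract, was given in the same way at 3 mM to FruArg+LPS cells. No group received AGE or FruArg without LPS.

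In the order replicate 1, replicate 2, used throughout, the libraries held 2707500 and 8995052 counts in Control, 8720784 and 12069807 in LPS, 6795464 and 6669072 in AGE+LPS, and 4692715 and 5822113 in FruArg+LPS. Levels are given as CPM, counts scaled to the size of each library, after TMM normalization over the 8 libraries. Scaled by library size without TMM, a floor of 3 counts was worth 0.249 to 1.11 CPM, depending on the library. After TMM, 3 counts were worth 0.934 CPM in Control replicate 1. Per the labels, lane 3 carried replicate 1 of each group and lane 6 carried replicate 2, so a comparison can also be made within a lane, from 1 library per group. The series calls the libraries biological replicates. Whether the cultures were grown independently is not given, so the p-values measure the spread between these libraries.

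The cells carried markers of the macrophage lineage. Of 13 markers of microglia and macrophages, 9 reached at least 1 CPM in every library, with Ptprc the most abundant (mean 674 CPM), and their summed level was 3469 and 4196 CPM in Control, 2797 and 3097 in LPS, 2533 and 2861 in AGE+LPS, and 3459 and 3369 in FruArg+LPS. The remaining markers, Cx3cr1, P2ry12, Tmem119 and Fcrls, are typical of microglia in the brain and were low: P2ry12 was at 6.22 and 9.27 CPM in Control and Tmem119 at 0.311 and 0.375. The lists of markers of neurons, astrocytes, oligodendrocytes and T cells each summed to at most 3.03 CPM in any library, with Rbfox3, Snap25, Syt1, Aqp4, Aldh1l1, Mog, Olig1, Cd3e, Cd3g and Cd8a at 0 in each. Of the 5 endothelial markers, Cldn5 was at 0 and Kdr made up nearly all of the sum, at 77.2 and 77.0 CPM in Control and between 4.75 and 18.3 CPM in the LPS-treated libraries. The part of these markers in the results was not tested.

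Inducible nitric oxide synthase, the product of Nos2, turns L-arginine into nitric oxide and citrulline in activated macrophages and microglia and needs tetrahydrobiopterin as a cofactor. Arginine reaches it through cationic amino acid transporters or is rebuilt from citrulline. Ornithine decarboxylase feeds ornithine into polyamine synthesis.

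LPS was compared with Control for the response to the endotoxin. A DEG changed at least 2-fold and had an adjusted p (Benjamini-Hochberg) below 0.05 in edgeR's quasi-likelihood test, fitted on the 4 libraries of each pair of groups. Nos2, Gch1 and Slc7a2 were up-regulated, which made 3 of the 6 members that passed the low-count filter, where 11.5% of the 12888 genes tested were up-regulated. None of the 6 was a down-regulated DEG, where 11.1% of genes were. That count of 0 was also 0 by DESeq2, and 1 member was lower at an unadjusted p below 0.05. Of all 12888 genes, 5332 had an unadjusted edgeR p below 0.05 in either direction, and DESeq2 called 2569 of 21997 genes. Ass1 and Ddah2 held too few counts to be tested. The filter asks for 2 libraries above its minimum, which the 2 Control libraries, with 7 and 7 Nos2 counts, did not both reach. Nos2 was therefore tested because of its level in LPS, so its count among the DEGs of this comparison is no independent sign.

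The co-treatments were compared with LPS for what AGE and FruArg change in stimulated cells. In AGE+LPS, Nos2 was down-regulated, 1 of 6 members tested, where 0.503% of 12317 genes were down-regulated and 4.82% with the replicate number as a block in the fit. No member was up-regulated (0 by edgeR and by DESeq2, 1 higher at an unadjusted p below 0.05), where 0.292% of genes were, or 4.91% with the block. In FruArg+LPS, edgeR called 0 of 6 members in either direction, as it called 0% of 12071 genes up and 0% down. With the block it called 1 member down, Nos2, and 0 up, against 3.48% of genes down and 2.87% up. DESeq2 also called 1 member down and 0 up, and at an unadjusted p below 0.05 there were 1 higher and 1 lower. Between the co-treatments, edgeR called 0 of 7 members up and 0 down, and 0% of 11915 genes in each direction. DESeq2 gave 0 and 0, and 1 member was higher and 1 lower at an unadjusted p below 0.05. With the block Odc1 was down-regulated in FruArg+LPS against AGE+LPS, 1 of 7, where 0.352% of genes went down and 0.546% up. Of all genes, 2194 with AGE against LPS had an unadjusted edgeR p below 0.05 in either direction. With FruArg against LPS there were 1543, and between the co-treatments 668. DESeq2 called 529 of 21850, 194 of 21303 and 0 of 20504 genes in the same order.

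Against Control, the same 3 genes were DEGs in both co-treatments: Nos2, Gch1 and Slc7a2 were up-regulated, beside 7.64% of 12449 genes in AGE+LPS and 9.59% of 12038 in FruArg+LPS. No tested member was down-regulated in either, by edgeR or by DESeq2, and the number lower at an unadjusted p below 0.05 was 0 in AGE+LPS and 1 in FruArg+LPS. Of all genes, 7.41% and 7.84% were down-regulated. These comparisons use the Control libraries of the LPS comparison again. Nos2 was tested in them because of its level in the co-treated libraries, so here too its count among the DEGs is no independent sign. DESeq2 called 4 members up-regulated in each, Ass1 being the added one. Of all genes in AGE+LPS and FruArg+LPS, DESeq2 called 1657 of 21309 and 1954 of 20703 in either direction. By edgeR, 3938 and 4311 genes had an unadjusted p below 0.05. When FruArg+LPS replicate 1 was left out, 5 members were up-regulated against Control, the added ones being Asl and Ass1, and Odc1 was down-regulated.

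**Figure D1:**
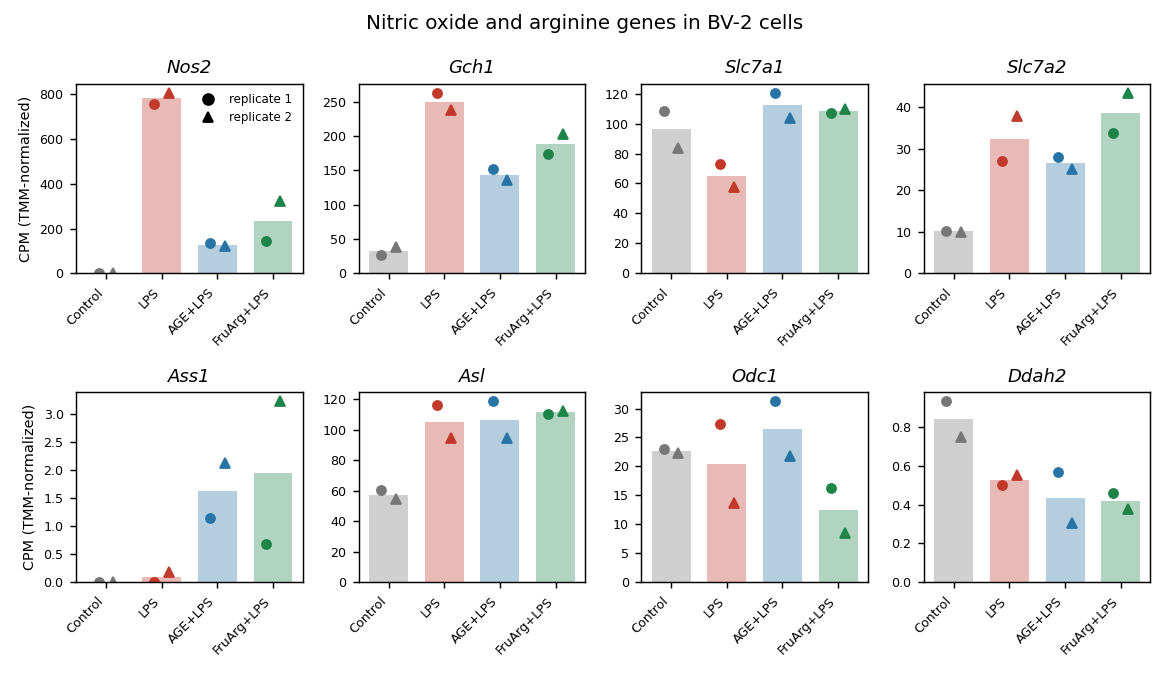
Level of 8 genes in CPM (vertical axis, linear, from 0, on its own scale for each gene) in the 4 groups. Bars are means of 2 libraries, circles replicate 1 and triangles replicate 2; Nos2 reached 758 and 808 CPM in LPS and lay between 123 and 323 CPM in the co-treated libraries.

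Nos2 (ENSMUSG00000020826, chr11:78920787-78960254, plus strand, GRCm38) was nearly silent without LPS. It held 7 and 7 counts in Control (2.18 and 0.655 CPM), 6066 and 8791 in LPS (758 and 808 CPM), 935 and 812 in AGE+LPS (133 and 123 CPM), and 638 and 1702 in FruArg+LPS (146 and 323 CPM). The LPS libraries were the highest, the Control libraries the lowest, and the co-treated libraries lay between them without reaching either, while the AGE+LPS libraries both lay under the FruArg+LPS libraries. Scaled by library size instead of TMM, the co-treatments overlapped, with AGE+LPS replicate 1 at 138 CPM and FruArg+LPS replicate 1 at 136 CPM. The mean rose from 1.42 ± 1.08 CPM (SD, n = 2) to 783 ± 35.3 CPM with LPS, a log2 fold change (Log2FC) of 9.54 (SE 0.43, 95% interval 8.58 to 10.50, edgeR adjusted p = 2.71e-06). This was the 8th highest Log2FC among the genes tested. Its size rested on few counts in Control: without Control replicate 1 it was 10.23 and without Control replicate 2 it was 8.50. Within lanes, on log2(CPM + 1), the difference was 7.90 in lane 3 and 8.93 in lane 6. A change in the number of responding cells and a change in RNA per cell cannot be told apart in these bulk libraries.

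With AGE, Nos2 RNA fell to 16.4% of its level in LPS alone, to a mean of 128 ± 7.33 CPM (SD, n = 2). The Log2FC was −2.61 (SE 0.21, 95% interval −3.11 to −2.11, edgeR adjusted p = 0.0358), the 58th lowest of the genes tested and the 2nd smallest p. It was −2.50 in lane 3 and −2.71 in lane 6. Against Control, AGE+LPS cells still had a Log2FC of 6.91 (SE 0.40, edgeR adjusted p = 1.71e-05), which was 7.61 without Control replicate 1 and 5.88 without Control replicate 2.

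With FruArg, the mean of Nos2 was 235 CPM with an SD of 125 CPM (n = 2), since replicate 2 held more than double the level of replicate 1. FruArg+LPS replicate 1 had a count on 14607 genes, the fewest of the 8 libraries, beside 16341 in the smaller Control replicate 1. Its 20 most abundant genes took 19.4% of its counts, the largest such share. The part of this in the difference was not tested. The Log2FC against LPS was −1.73 (SE 0.36, 95% interval −2.54 to −0.92) and did not pass the threshold (edgeR adjusted p = 0.192). With the replicate block it passed, at −1.83 (SE 0.20, edgeR adjusted p = 7.73e-11), and over the 13 fits made the adjusted p ranged from 7.73e-11 to 0.211. Without FruArg+LPS replicate 1 the Log2FC was −1.26 (edgeR adjusted p = 0.211), without FruArg+LPS replicate 2 it was −2.42 (4.16e-06), and without LPS replicate 1 it was −1.79 (0.0170). Within lanes it was −2.37 in lane 3 and −1.32 in lane 6. Nos2 was lower than in LPS in 2 of 2 lanes, by different amounts.

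The difference of the co-treatments was tested directly. FruArg+LPS against AGE+LPS gave a Nos2 Log2FC of 0.86 (SE 0.33, 95% interval 0.12 to 1.61, edgeR adjusted p = 0.837), and with the block 0.77 (edgeR adjusted p = 0.0512; 0.0512 to 1.00 over the fits made). In lane 3 the difference was 0.13 and in lane 6 it was 1.39, so the pooled value rested on lane 6. Against Control, FruArg+LPS cells had a Nos2 Log2FC of 7.78 (SE 0.60, edgeR adjusted p = 0.000149), which was 8.45 without Control replicate 1, 6.73 without Control replicate 2 and 7.12 without FruArg+LPS replicate 2.

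Gch1 (ENSMUSG00000037580, chr14:47153895-47189413, minus strand) encodes GTP cyclohydrolase, the rate-limiting enzyme of tetrahydrobiopterin synthesis. Its level was 27.1 and 38.6 CPM in Control, 263 and 237 in LPS, 152 and 136 in AGE+LPS, and 174 and 203 in FruArg+LPS. The order of the groups was that of Nos2, with no overlap between any pair of groups. LPS up-regulated it 7.70-fold, from 32.8 ± 8.13 to 250 ± 18.3 CPM (SD, n = 2), with a Log2FC of 2.95 (SE 0.24, edgeR adjusted p = 4.58e-05) and within-lane differences of 3.23 and 2.59. AGE+LPS cells had 57.6% of the LPS level, a Log2FC of −0.80 (SE 0.20, 95% interval −1.27 to −0.32, edgeR adjusted p = 0.106). The block put that p at 2.10e-11 by edgeR (2.10e-11 to 0.364 over the fits made), still short of a 2-fold change, and the within-lane differences were −0.79 and −0.80. FruArg+LPS cells had a Log2FC of −0.40 against LPS (SE 0.23, edgeR adjusted p = 0.463), with −0.59 and −0.22 within lanes, and of 0.38 against AGE+LPS (SE 0.23, edgeR adjusted p = 0.837). Both co-treatments stayed above Control, with Log2FC of 2.13 and 2.53 (edgeR adjusted p = 0.000362 and 0.000315).

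Slc7a2 (ENSMUSG00000031596, chr8:40862396-40922308, plus strand) encodes the cationic amino acid transporter that macrophages induce on activation. It was at 10.3 and 10.02 CPM in Control, 27.0 and 37.9 in LPS, 28.1 and 25.1 in AGE+LPS, and 33.7 and 43.5 in FruArg+LPS. All libraries with LPS exceeded both Control libraries, and LPS overlapped with each co-treatment, while FruArg+LPS lay above AGE+LPS. LPS up-regulated it 3.29-fold, with a Log2FC of 1.72 (SE 0.28, edgeR adjusted p = 0.00154) and within-lane differences of 1.31 and 1.82. The Log2FC against LPS was −0.28 (SE 0.26) with AGE and 0.26 (SE 0.29) with FruArg, and that between the co-treatments was 0.53 (SE 0.28), with edgeR adjusted p of 0.632, 0.715 and 0.837. In lanes 3 and 6 the AGE value was 0.056 and −0.57, so its direction differed, and the FruArg value was 0.31 and 0.20. Leaving out a library gave −0.51 to −0.021 for AGE and 0.021 to 0.52 for FruArg. Against Control the co-treatments had Log2FC of 1.41 and 1.96 (edgeR adjusted p = 0.00416 and 0.00179).

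Slc7a1 (ENSMUSG00000041313, chr5:148327410-148399904, minus strand) encodes the constitutive cationic amino acid transporter. Its level was 109 and 83.5 CPM in Control, 73.1 and 57.4 in LPS, 121 and 104 in AGE+LPS, and 107 and 110 in FruArg+LPS. The LPS libraries were the lowest, apart from those of each other group, whereas Control and the co-treatments overlapped. Its order of groups was thus not that of Slc7a2. The Log2FC of LPS against Control was −0.52 (SE 0.23, edgeR adjusted p = 0.118) and ran from −0.72 to −0.32 with a library left out. It was 0.79 with AGE against LPS (SE 0.22, 95% interval 0.25 to 1.32, edgeR adjusted p = 0.138) and 0.74 with FruArg (SE 0.24, 95% interval 0.19 to 1.29, edgeR adjusted p = 0.288). With the block the 3 adjusted p by edgeR were 0.00743, 3.86e-10 and 0.00192, for changes that stayed under 2-fold, and over the fits made they ranged from 0.00690 to 0.621, from 3.86e-10 to 0.533 and from 0.00192 to 0.999. Within lanes 3 and 6 the values were −0.56 and −0.53 for LPS, 0.72 and 0.84 for AGE, and 0.54 and 0.93 for FruArg. The level of Slc7a1 per kilobase over that of Slc7a2 was 8.38 and 6.60 in Control, 2.15 and 1.20 in LPS, 3.40 and 3.27 in AGE+LPS, and 2.51 and 2.00 in FruArg+LPS.

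Asl (ENSMUSG00000025533, chr5:130011258-130029247, minus strand) encodes argininosuccinate lyase, which completes the rebuilding of arginine from citrulline. It stood at 60.4 and 54.5 CPM in Control, 116 and 94.5 in LPS, 119 and 94.8 in AGE+LPS, and 111 and 112 in FruArg+LPS. Libraries with LPS were all above Control, and the groups with LPS overlapped one another. The Log2FC of LPS against Control was 0.91 (SE 0.21, edgeR adjusted p = 0.0101), which is 1.88-fold and short of the minimum of 2, with 0.93 and 0.78 within lanes. Over the fits made the adjusted p ranged from 2.22e-05 to 0.147. Leaving out a library gave 0.77 to 1.06. It was 0.92 with AGE and 0.99 with FruArg against Control (edgeR adjusted p = 0.0146 and 0.00848, ranging from 6.33e-06 to 0.172 and from 6.44e-05 to 0.116). Against LPS the values were 0.02 for AGE (95% interval −0.51 to 0.56) and 0.09 for FruArg (−0.44 to 0.62), intervals that hold no 2-fold change in either direction.

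Ass1 (ENSMUSG00000076441, chr2:31470207-31520672, plus strand) encodes argininosuccinate synthase, the step before Asl, and was close to the detection limit. It held 0 and 0 counts in Control, 0 and 2 in LPS, 8 and 14 in AGE+LPS, and 3 and 17 in FruArg+LPS. Each co-treated library held more counts than each library of the other groups, with up to 3.23 CPM in FruArg+LPS replicate 2. Pooled over libraries, the co-treated cells had 7.48-fold (AGE) and 9.62-fold (FruArg) the level that a floor of 3 counts over the group would give in Control. These values leave out the counting error of the co-treated counts, so they are not lower limits. The FruArg value rested mostly on replicate 2, which held 17 counts against 3 in replicate 1. Against LPS the ratios were 15.3 (95% exact interval 3.75 to 134) and 19.6 (4.77 to 173), which cover counting error only. The low-count filter removed Ass1 from these comparisons. With a filter of 1 count over the libraries edgeR gave an adjusted p of 0.000447 for AGE+LPS against Control and 0.00811 for FruArg+LPS, and over the fits that held it the range was 0.000447 to 0.128 and 0.000360 to 0.297. With that filter edgeR gave an adjusted p of 0.00631 for AGE against LPS and 0.0920 for FruArg, and over the 6 fits that held it the range was 0.00631 to 0.200 and 0.0176 to 0.928. FruArg+LPS against AGE+LPS was tested, with a Log2FC of 0.29 (SE 0.86, edgeR adjusted p = 0.959) that turned to −0.10 without AGE+LPS replicate 1 and to −1.22 without FruArg+LPS replicate 2.

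A processed pseudogene, Gm5424 (chr10:62071123-62072362, plus strand), which was looked at after its values were seen, is a near copy of Ass1, with 1240 bases aligned at 99.5% identity. It held 95 counts over the 8 libraries against 44 on Ass1: 0 and 4 in Control, 4 and 23 in LPS, 26 and 23 in AGE+LPS, and 7 and 8 in FruArg+LPS. How reads that fit both loci were counted is not given, and the locus of origin of these reads was not tested. Summed over both loci the counts were 0 and 4, 4 and 25, 34 and 37, and 10 and 25 in the same order. In the sum the AGE+LPS libraries were the highest (4.85 and 5.60 CPM), and FruArg+LPS overlapped with LPS, since FruArg+LPS replicate 1 (2.29 CPM) was level with LPS replicate 2 (2.30 CPM). The summed ratios to LPS were 3.40 (95% exact interval 2.18 to 5.43) with AGE and 2.37 (1.41 to 4.02) with FruArg. Those to Control were 18.1 (6.77 to 68.3) with AGE and 12.6 (4.52 to 48.9) with FruArg. The sum in LPS was 5.33 times that in Control (1.87 to 20.9), so the size of the Ass1 difference depended on the locus counted.

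Odc1 (ENSMUSG00000011179, chr12:17544794-17551505, plus strand) encodes ornithine decarboxylase, which makes putrescine. Its level was 23.0 and 22.4 CPM in Control, 27.4 and 13.6 in LPS, 31.2 and 21.8 in AGE+LPS, and 16.3 and 8.55 in FruArg+LPS. In each group with LPS the lane 3 library was the higher, and FruArg+LPS lay below Control and AGE+LPS while overlapping with LPS. FruArg+LPS against AGE+LPS had a Log2FC of −1.11 (SE 0.38, 95% interval −1.96 to −0.26, edgeR adjusted p = 0.837), with −0.90 in lane 3 and −1.26 in lane 6. With the block it was down-regulated, at −1.14 (SE 0.27, edgeR adjusted p = 0.0238), and over the 13 fits made the adjusted p ranged from 0.0238 to 0.953. Without the block, leaving out a library gave −1.63 to −0.71, the smallest being without FruArg+LPS replicate 2. The Log2FC was −0.71 for FruArg against LPS (SE 0.45, edgeR adjusted p = 0.499), 0.38 for AGE against LPS (SE 0.38, edgeR adjusted p = 0.667) and −0.12 for LPS against Control (SE 0.33, 95% interval −0.87 to 0.63, edgeR adjusted p = 0.817). Leaving out a library took the FruArg value to between −1.24 and −0.15. With the block the AGE value was 0.42, short of 2-fold, at an edgeR adjusted p of 0.0287 (0.0287 to 0.985 over the fits made). Without LPS replicate 2 and without the block, the LPS value turned to 0.32 and the AGE value to −0.046. FruArg+LPS against Control gave −0.85 (SE 0.35, edgeR adjusted p = 0.121), and with the block −0.92 (edgeR adjusted p = 0.0283), short of 2-fold. Without the block, leaving out a library took this value to between −1.36 and −0.46. Odc1 has 19 near copies in the genome, the longest with 1407 bases at 94.9% identity, and 11 of them held 411 counts in all beside 1159 on Odc1. The pooled ratio of FruArg+LPS to AGE+LPS was 0.452 (95% exact interval 0.363 to 0.558) for Odc1 alone and 0.551 (0.461 to 0.656) with the near copies added.

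Ddah2 (ENSMUSG00000007039, chr17:35059035-35062095, plus strand) encodes a member of the family of enzymes that break down methylarginines, which inhibit nitric oxide synthases. It held 3 and 8 counts in Control, 4 and 6 in LPS, 4 and 2 in AGE+LPS, and 2 and 2 in FruArg+LPS. These are at most 0.934 CPM, with Control the highest and AGE+LPS overlapping with both LPS and FruArg+LPS. The ratio of LPS to Control was 0.669 (95% exact interval 0.255 to 1.73), and the interval of each other comparison also included 1.

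**Figure D2:**
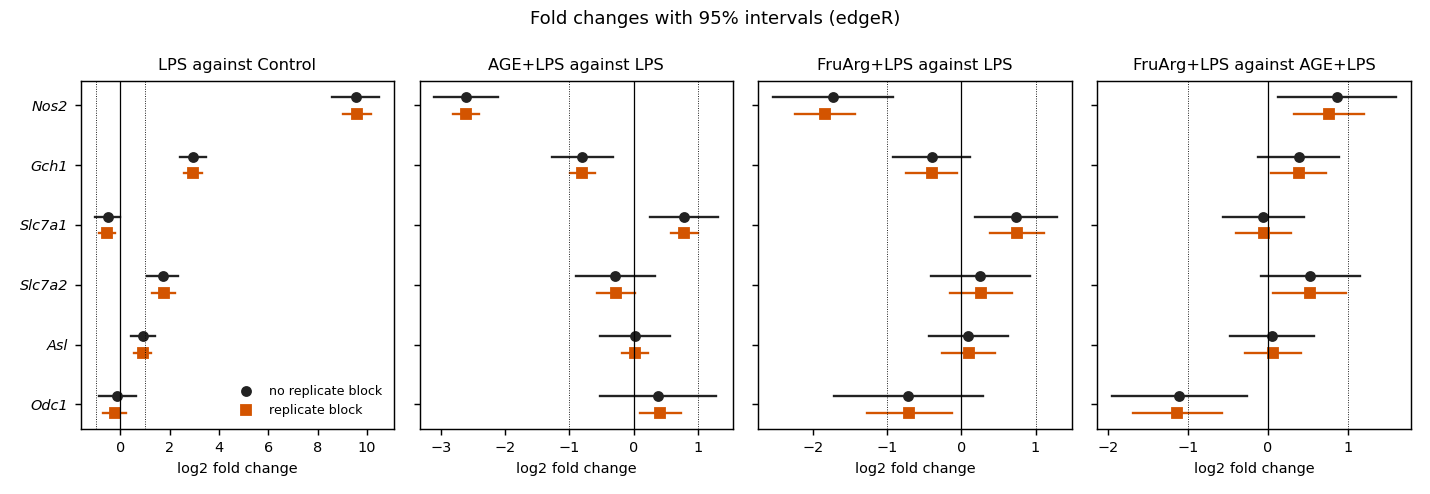
Log2FC with 95% intervals (horizontal axis) of Nos2, Gch1, Slc7a1, Slc7a2, Asl and Odc1 in 4 comparisons, without the replicate block (black circles) and with it (orange squares), and dotted lines at a 2-fold change. Nos2 was at 9.54 for LPS against Control and −2.61 for AGE+LPS against LPS, and Odc1 at −1.11 for FruArg+LPS against AGE+LPS.

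Levels of different genes were compared per kilobase of exon. In Control the order of the means was Asl (11.9 CPM per kilobase), Slc7a1 (8.33), Odc1 (6.67), Gch1 (5.25) and Slc7a2 (1.11), each apart from the next. Ddah2 (0.528) and Nos2 (0.321) followed and overlapped, before Ass1. In LPS, Nos2 led with 177 CPM per kilobase, then Gch1 (40.0) and Asl (21.8), with Odc1 (6.02) and Slc7a1 (5.66) overlapping. Slc7a2 followed at 3.55, apart from Slc7a1 but overlapping with Odc1. With AGE the lead of Nos2 narrowed to 29.1 against 23.0 for Gch1 and 22.1 for Asl, and the latter pair overlapped. With FruArg the order was Nos2 (53.2), Gch1 (30.2), Asl (23.1), Slc7a1 (9.40), then Slc7a2 (4.23) and Odc1 (3.65), which overlapped. Ass1 and Ddah2 were under 1 CPM per kilobase on average in every group. Among 45229 genes with a known length, Nos2 took places 13319 and 15801 in Control, 390 and 358 in LPS, 1996 and 2149 in AGE+LPS, and 1865 and 939 in FruArg+LPS. The level of Nos2 per kilobase over that of Gch1 was 0.114 and 0.0241 in Control, 4.08 and 4.83 in LPS, 1.24 and 1.29 in AGE+LPS, and 1.19 and 2.26 in FruArg+LPS. It was highest in the LPS libraries.

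The wider pathway was described with 9 lists that hold 120 other genes of the table. In LPS against Control, 19 of the 87 list genes tested were up-regulated and 17 down-regulated, where 11.5% and 11.1% of all genes were, with a median Log2FC of −0.10 against 0.02 for all genes. The count of each list is to be read beside those shares. Transcription factors that act on genes of arginine metabolism were up-regulated in 9 of 14 and down-regulated in 0 (0 by DESeq2 and 0 lower at an unadjusted p below 0.05), with a median of 1.70. Irf1, an interferon regulatory factor that acts on Nos2, went from 31.1 ± 6.17 to 308 ± 39.3 CPM (SD, n = 2; Log2FC 3.32, SE 0.24, edgeR adjusted p = 2.54e-05), and Stat2, Atf3 and Stat3 followed with 2.42, 2.36 and 1.93. Of 6 tested genes of nitric oxide targets and removal, 3 were up-regulated (median 1.09): the reductases Txnrd1 (Log2FC 2.40, SE 0.22) and Gsr (2.20, SE 0.23), and the cGMP-dependent kinase Prkg1 (1.24, SE 0.23). Among the synthases and their regulators 2 of 12 were up-regulated (median 0.38), the chaperone Hsp90aa1 (Log2FC 2.60) and Spsb4 (1.56), a member of the SPRY domain family that targets the synthase for degradation. Of 7 genes of tetrahydrobiopterin synthesis and recycling, Akr1b3 was up-regulated (1.26) and Cbr1 down-regulated (−1.06), with a median of −0.60.

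Of 10 enzymes of arginine, urea cycle, proline and creatine metabolism, 3 were down-regulated (median −0.96). They included both enzymes of creatine synthesis, Gatm, which takes its amidino group from arginine (from 44.0 ± 0.576 to 4.18 ± 0.977 CPM, SD, n = 2; Log2FC −3.37, SE 0.28, edgeR adjusted p = 5.14e-05), and Gamt (−2.84, SE 0.52), beside Pycrl (−1.02). Gamt was at 8.88 ± 0.680 CPM in Control and 1.26 ± 0.871 CPM in LPS (SD, n = 2). It was tested because of its level in Control, so its count among the DEGs is no independent sign. With the block 5 of the 10 were down-regulated. Of all 12888 genes, the block called 3282 in either direction in this comparison, against 2918 without it. Of 7 genes of methylarginine formation and breakdown, 4 were down-regulated and 1 up-regulated (median −1.06), with Ddah1 at −1.72 (SE 0.24), Prmt7 at −1.22, Prmt5 at −1.06 and Prmt2 at 1.12. Ddah1 went from 37.7 ± 1.31 to 11.1 CPM, whereas Ddah2 was near its floor in every group. Of 16 polyamine genes, spermine oxidase (Smox) was up-regulated (2.24, SE 0.26) and 3 were down-regulated, including spermidine synthase (Srm, −1.40, SE 0.23), with a median of −0.42. Of 8 transporters, the heavy chain Slc3a2 was up-regulated (1.57), its partners Slc7a5 (−1.61) and Slc7a6 (−1.25) and the mitochondrial ornithine carrier Slc25a15 (−1.75) were down-regulated, and the median was −0.30. Of 7 genes of alternative macrophage activation, Il4ra was up-regulated (3.00) and Mgl2 (−2.81), Mrc1 (−2.29) and Clec10a (−1.02) were down-regulated, with a median of 0.33. With the block 2 of the 7 were up-regulated. Scaling by library size, a setting chosen for the lists after seeing the data, moved the median of all genes to −0.40 and gave 0 up and 4 down of 7 tetrahydrobiopterin genes, 7 down of the arginine, urea cycle, proline and creatine enzymes, 6 down of the polyamine genes, and 0 up of the methylarginine genes. Of all 12888 genes, that scaling called 3598 in either direction, against 2918 with TMM.

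In AGE+LPS against LPS, 1 of 88 list genes tested was up-regulated, the lectin gene Clec10a (from 9.05 ± 0.454 to 28.1 ± 3.27 CPM, SD, n = 2; Log2FC 1.64, SE 0.25, edgeR adjusted p = 0.0491), and 0 were down-regulated by edgeR. DESeq2 called 5 up and 4 down, and 15 were higher and 17 lower at an unadjusted p below 0.05. Of all genes, DESeq2 called 529 of 21850 in either direction, and 2194 of 12317 had an unadjusted edgeR p below 0.05. With the block 7 list genes were up-regulated and 8 down-regulated, where 4.91% and 4.82% of all genes were. The factors were down-regulated in 3 of 14 with the block and 0 without it, with block values of −1.37 for Irf1 (SE 0.10), −1.19 for Stat2 and −1.04 for Stat3, and the list had a median Log2FC of −0.55 without the block. The neuronal synthase gene Nos1 (−1.56, SE 0.29) and Hsp90aa1 (−1.04) were down-regulated with the block, as was Mrc1 (−1.01). The transporters Slc7a5 (1.12, SE 0.16) and Slc7a6 (1.10), the polyamine exporter of lysosomes Atp13a2 (1.07) and the dehydratase Pcbd2 (1.47) were up-regulated with it. The list of arginine, urea cycle, proline and creatine enzymes (median 0.30) and that of methylarginine genes (median 0.73) held no DEG in this comparison with or without the block, or by DESeq2, and at an unadjusted p below 0.05 they held 2 and 3 higher genes.

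In FruArg+LPS against LPS, 0 of 87 list genes were DEGs in either direction by edgeR, with 10 higher and 10 lower at an unadjusted p below 0.05, and DESeq2 called 3 up and 2 down. Of all genes, 1543 of 12071 had an unadjusted edgeR p below 0.05 in either direction, and DESeq2 called 194 of 21303. With the block 5 list genes were up-regulated, namely Clec10a (1.502, SE 0.29), Atp13a2 (1.22), Pcbd2 (1.19), Ddah1 (1.10) and Il4ra (1.09), and 2 down-regulated, among them Prkg1 (−1.38, SE 0.24), where 2.87% and 3.48% of all genes were. Between the co-treatments 0 of 86 were DEGs, with 5 higher and 2 lower at an unadjusted p below 0.05 and 0 by DESeq2. Of all 11915 genes, 668 had an unadjusted edgeR p below 0.05 in either direction, and DESeq2 called 0 of 20504. With the block Slc7a5 was down-regulated in FruArg+LPS, at 15.5 ± 1.48 CPM against 32.9 ± 5.98 in AGE+LPS (SD, n = 2; Log2FC −1.08, SE 0.25, edgeR adjusted p = 0.0211). Against Control, 15 of 90 list genes were up-regulated and 7 down-regulated in AGE+LPS, where 7.64% and 7.41% of all genes were, and 18 and 9 of 86 in FruArg+LPS, where 9.59% and 7.84% were. Il4ra was the furthest up in both among the list genes named (Log2FC 3.56 and 4.06), and Mrc1 the furthest down (−3.33 and −3.03).

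The genes closest to Nos2 in pattern were sought among 10010 genes with a mean of at least 5 CPM, by the root mean square difference over the 8 libraries of log2(CPM + 1) centred on each gene's mean. They were Gbp5 (0.629), Zfp811 (0.827), Cxcl10 (0.884), Ccl5 (0.900) and Cd40 (0.910). Gbp5, an interferon-inducible GTPase, was at 0.622 and 0.749 CPM in Control, 174 and 269 in LPS, 55.1 and 35.3 in AGE+LPS, and 43.3 and 127 in FruArg+LPS. As with Nos2, its LPS libraries were the highest and FruArg+LPS replicate 2 exceeded replicate 1. The chemokine gene Ccl5 was at 204 and 309 CPM in LPS and at 381 CPM in FruArg+LPS replicate 2, above both LPS libraries, which Nos2 was not.

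Promoters in RefSeq (GRCm38.p6) were at hand for 5 of the 8 genes, Gch1, Odc1, Slc7a1, Ass1 and Ddah2, and not for Nos2, Asl and Slc7a2. Shown 5′ to 3′ are those of Gch1, a member up-regulated by LPS, over chr14:47189414-47189663 on the minus strand, and of Odc1, which set the co-treatments apart with the block, over chr12:17544623-17544793 on the plus strand. The first has 250 bases (59.2% GC) and the second 171 (77.2% GC), since 79 bases that lie inside the annotated gene were left out. Capitals mark motif matches on either strand.
Gch1: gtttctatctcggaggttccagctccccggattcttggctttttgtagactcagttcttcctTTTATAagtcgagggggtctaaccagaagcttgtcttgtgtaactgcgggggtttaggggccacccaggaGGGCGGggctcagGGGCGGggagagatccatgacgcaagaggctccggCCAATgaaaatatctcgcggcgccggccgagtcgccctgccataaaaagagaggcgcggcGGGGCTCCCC
Odc1: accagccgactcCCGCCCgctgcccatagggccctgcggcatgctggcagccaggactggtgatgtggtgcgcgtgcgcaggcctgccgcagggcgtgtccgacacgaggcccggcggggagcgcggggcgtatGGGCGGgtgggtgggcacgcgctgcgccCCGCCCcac

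On both strands 10 motifs were searched, and the share of 32851 promoters that hold each was 3.90% for the NF-kB consensus, 7.02% for the interferon-gamma activated site TTCNNNGAA, 2.98% for the interferon-stimulated response core, 6.75% for the AP-1 site TGANTCA, 1.55% for the CRE TGACGTCA, 6.02% for the E-box CACGTG, 12.4% for the TATA box TATAAA, 33.8% for CCAAT, 3.45% for the composite site TGATGNAA and 32.7% for the GC box GGGCGG. Gch1 had 5 matches that do not overlap: an NF-kB consensus in the 10 bases before the gene, CCAAT starting 70 bases before it, GC boxes at 118 and 105, and a TATA box at 188 on the other strand. Odc1 had 3 GC boxes, at 159, 37 and 9 bases before the gene. Slc7a1 had an AP-1 site and a GC box, Ddah2 a TTCNNNGAA site and 2 GC boxes, and Ass1 had 0 matches in 187 bases. A match describes the letters only, and binding was not tested.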

How the data were processed

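The authors trimmed single-end reads of 100 nt with fastx_toolkit, mapped them to GRCm38 with TopHat2 and deposited raw counts per Ensembl gene from featureCounts. Their processing notes also name edgeR, and their methods DESeq2. Versions, strandedness and the handling of reads that map to several places are not given in the sources used here. The labels name an RNeasy kit for extraction and the methods TRIzol. Of the genes, 45229 were matched to GENCODE M21 for position and exon length. The 10 members and the 9 pathway lists were chosen with earlier results of these data known. Of the members, 2 are not reported here.

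Each pair of groups was fitted on its 4 libraries with edgeR 4.0.16 in R 4.3.3 (filterByExpr, TMM, two-sided quasi-likelihood F-test, Benjamini-Hochberg over the genes tested). The fit was tested on simulated data for Control and LPS. These data had the same dispersion for every gene and no replicate effect, so they do not show how the fits handle such an effect. Members below the filter were compared as pooled counts with exact conditional binomial intervals (scipy 1.17.1), using a floor of 3 counts over the group where a group had 0. These intervals cover counting error only, and ratios to a floor leave out the counting error of the other group. Near copies were transcripts aligned over at least 200 bases at 90% identity or more. Python 3.11.15 with pandas 2.3.3 made the tables, and matplotlib 3.10.9 the figures.

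Named are each member, at most 4 DEGs of each list and comparison taking the largest fold changes where the mean reached 5 CPM, and the 5 genes most like Nos2. The alternatives were RLE factors, library size scaling, DESeq2 1.42.0, filters of 1 count in all and of 10 counts in every library, no minimum fold change, one fit of all 4 groups, a block for the replicate number, both together, and leaving out each library. Counts of list genes under other settings and sums with near copies were chosen after seeing the data. As a check of the pairing, the difference between replicates was correlated for each pair of groups across 10011 genes (r = 0.385 for Control with FruArg+LPS, the lowest, and 0.770 for LPS with AGE+LPS, the highest), so values with the block are given where they change a call or move a count given here by over 1.5 times.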

Additional observations from a re-analysis of the deposited data

Results flagged for a closer look

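Odc1 differed between the co-treatments with the replicate block, at a Log2FC of −1.14 for FruArg+LPS against AGE+LPS (SE 0.27, edgeR adjusted p = 0.0238, from 0.0238 to 0.953 over the fits made). This is the test of the difference between the AGE and FruArg effects on LPS-treated cells. It is listed because that test passed the threshold with the block. Against LPS the values with the block were 0.42 with AGE (edgeR adjusted p = 0.0287, from 0.0287 to 0.985 over the fits made, short of 2-fold) and −0.70 with FruArg (0.0814, from 0.0633 to 0.929). Without the block they were 0.38 and −0.71 (edgeR adjusted p = 0.667 and 0.499). Without the block the difference was −1.11 and did not pass (edgeR adjusted p = 0.837), and leaving out a library gave −1.63 to −0.71. It was under 2-fold without FruArg+LPS replicate 2 (−0.71) and without AGE+LPS replicate 1 (−0.83).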

How the results depend on the processing

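Over 37 pairs of a member and a comparison, 440 values under other settings were computed. Of these, 412 kept their direction and their side of the threshold, 14 passed the threshold in the same direction where the reported value did not, and 14 changed sign. With the replicate block, Nos2 was down-regulated in FruArg+LPS against LPS (Log2FC −1.83) and Odc1 in FruArg+LPS against AGE+LPS (−1.14). In the fits of each pair of groups the block changed no other call of a member tested. With 4 groups in one fit, the block also made Ass1 a DEG against LPS. Its edgeR adjusted p went from 0.135 to 0.0218 in AGE+LPS and from 0.178 to 0.0198 in FruArg+LPS.

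Counts of members are given here as far as they rest on the 8 genes described. The number up-regulated in AGE+LPS against LPS became 1 (Ass1) with a filter of 1 count and with the block and 4 groups in one fit, and 0 to 1 with a library left out. In FruArg+LPS against LPS it became 1 (Ass1) with the block and 4 groups in one fit, and 0 to 1 with a library left out. The number down-regulated there became 1 (Nos2) with DESeq2, a filter of 1 count, the block, and the block with 4 groups, and 0 to 1 with a library left out. The number down-regulated became 1 in FruArg+LPS against AGE+LPS with the block in either fit (Odc1), and 1 in FruArg+LPS against Control with library size scaling (Odc1), where leaving out a library gave 0 to 1. Up-regulated members against Control numbered 3 to 4 in LPS and AGE+LPS and 3 to 5 in FruArg+LPS when a library was left out, and 4 in both co-treatments, with Ass1, by DESeq2, with a filter of 1 count and with 4 groups in one fit, with or without the block. In LPS against Control they numbered 2 with a filter of 10 counts in every library, which Nos2 did not pass. With no minimum fold change they numbered 4, Asl being the added one. The cause of these changes was not tested.

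Apart from Ass1, the values that changed sign lay within 0.32 of 0. Library size scaling, which moved the median Log2FC of all genes to −0.40 in LPS and FruArg+LPS against Control and to −0.24 in AGE+LPS against Control, put LPS against Control at 0.49 for Asl (edgeR adjusted p = 0.0945, from 2.22e-05 to 0.147 over the fits made) and −0.94 for Slc7a1 (0.0115, from 0.00690 to 0.621), and gave Asl −0.082 in FruArg+LPS against AGE+LPS, Slc7a1 −0.19 in FruArg+LPS against Control and Odc1 −0.000714 in AGE+LPS against Control. With a library left out, Odc1 ranged from −0.69 to 0.32 in LPS against Control, from −0.046 to 0.97 in AGE+LPS against LPS and from −0.035 to 0.50 in AGE+LPS against Control. Asl ranged from −0.15 to 0.18 in AGE+LPS against LPS (−0.12 without LPS replicate 2), from −0.053 to 0.23 in FruArg+LPS against LPS and from −0.10 to 0.23 in FruArg+LPS against AGE+LPS. Slc7a1 ranged from −0.17 to 0.056 in FruArg+LPS against AGE+LPS and from −0.0062 to 0.38 in FruArg+LPS against Control, and Ass1 from −1.22 to 0.99 in FruArg+LPS against AGE+LPS (−0.10 without AGE+LPS replicate 1). The cause was not tested.

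With 2 libraries in a group, a fit that leaves 1 out assumes that the lone library varies like the other group. Ass1 and Ddah2 held few counts, and the counting intervals of their differences leave out the spread between libraries. Lane and replicate number coincide and cannot be told apart.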
